A study of Arabidopsis thaliana with 12 samples.

Results

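A set of 6 genes of Arabidopsis thaliana that encode secreted proteins of the cell wall was followed: the extensin-like genes AT1G26250 and AT1G26240, the class III peroxidase gene Prx37 (AT4G08770), the germin-like gene AT5G38910, and the glycine-rich protein genes AT4G30450 and AT4G30460. They were taken by locus or symbol from the probe annotation, each through a probe set annotated to that gene alone, and all 6 were found among 13355 genes with such a probe set. The genes had been chosen by their measured log2 differences between xrn3-8 and Col-0 on these arrays, so that difference is described below with its standard error (SE) and without a test. The changes after cordycepin, and whether they differed between genotypes, were tested. Those tests use the same arrays as the choice, so for the 6 genes the choice may have biased their p-values.

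Whole seedlings, 14 days old and grown on plates in long days, were compared in 4 groups of 3 biological replicates: xrn3-8 at 60 min after addition of 150 mg/l cordycepin, Col-0 at the same time, xrn3-8 before cordycepin (0 min), and Col-0 before cordycepin. Col-0 is the wild type, and xrn3-8 is an allele of XRN3, a nuclear exoribonuclease, whose molecular nature the labels do not state. Cordycepin is an adenosine analogue that ends growing RNA chains and is used to block transcription. The labels list no group kept for 60 min without cordycepin, so the effect of the agent and that of time and handling cannot be told apart.

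The plant cell wall holds proteins as well as polysaccharides. Extensins are hydroxyproline-rich glycoproteins that are joined into a network through tyrosine residues, and class III peroxidases are secreted haem enzymes that use hydrogen peroxide to make such links. Germin-like proteins are secreted proteins of the cupin fold, some of which produce hydrogen peroxide, and secreted glycine-rich proteins are structural wall components.

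Transcripts were measured on 12 Affymetrix arrays as log2 signal, 1 value per probe set and array, already set to a common scale by the authors. A change over time is therefore read against the bulk of the probe sets on the same arrays. Signals of different probe sets are not comparable, so each gene is set only against itself. Arrays of 1 group correlated at 0.9952 to 0.9977. XRN3 had no named probe set, and the check of the genotype by its signal was not run. Of the marker genes for cell types, few were measured: 2 of 12 for root hairs (EXPA7 and EXPA18), 1 of 11 for roots (PYK10) and 2 of 9 for green shoots (RCA and LHCB4.2). After cordycepin the root hair markers averaged 3.54 to 3.68 on the arrays of xrn3-8, against 3.57 to 3.83 on those of Col-0. Before cordycepin they averaged 3.47 to 3.65 for xrn3-8, against 3.40 to 3.50 for Col-0. In a whole seedling, fewer cells of a type and less RNA per cell cannot be told apart.

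All 6 genes had lower signals in xrn3-8 than in Col-0, after and before cordycepin, and in none of them did any xrn3-8 array reach a Col-0 array. After cordycepin the differences spanned -4.53 to -0.70 on the log2 scale, with a median of -1.96 against 0.02 for all 22746 probe sets tested. Before cordycepin they spanned -4.83 to -1.15, with a median of -1.26 against -0.01. Across all probe sets, the genotypes did not overlap, with xrn3-8 lower, in 19.2% after cordycepin and 23.6% before it, and in 12.1% at both times. The differences were at least 2-fold for 5 of the 6 genes after cordycepin and for 6 of the 6 before it. Without overlap, 1.68% of all probe sets after cordycepin and 1.39% before it were that much lower, and 0.945% were at least 2-fold lower at both times. These counts follow from how the genes were chosen, and nothing is read from them.

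**Figure D1:**
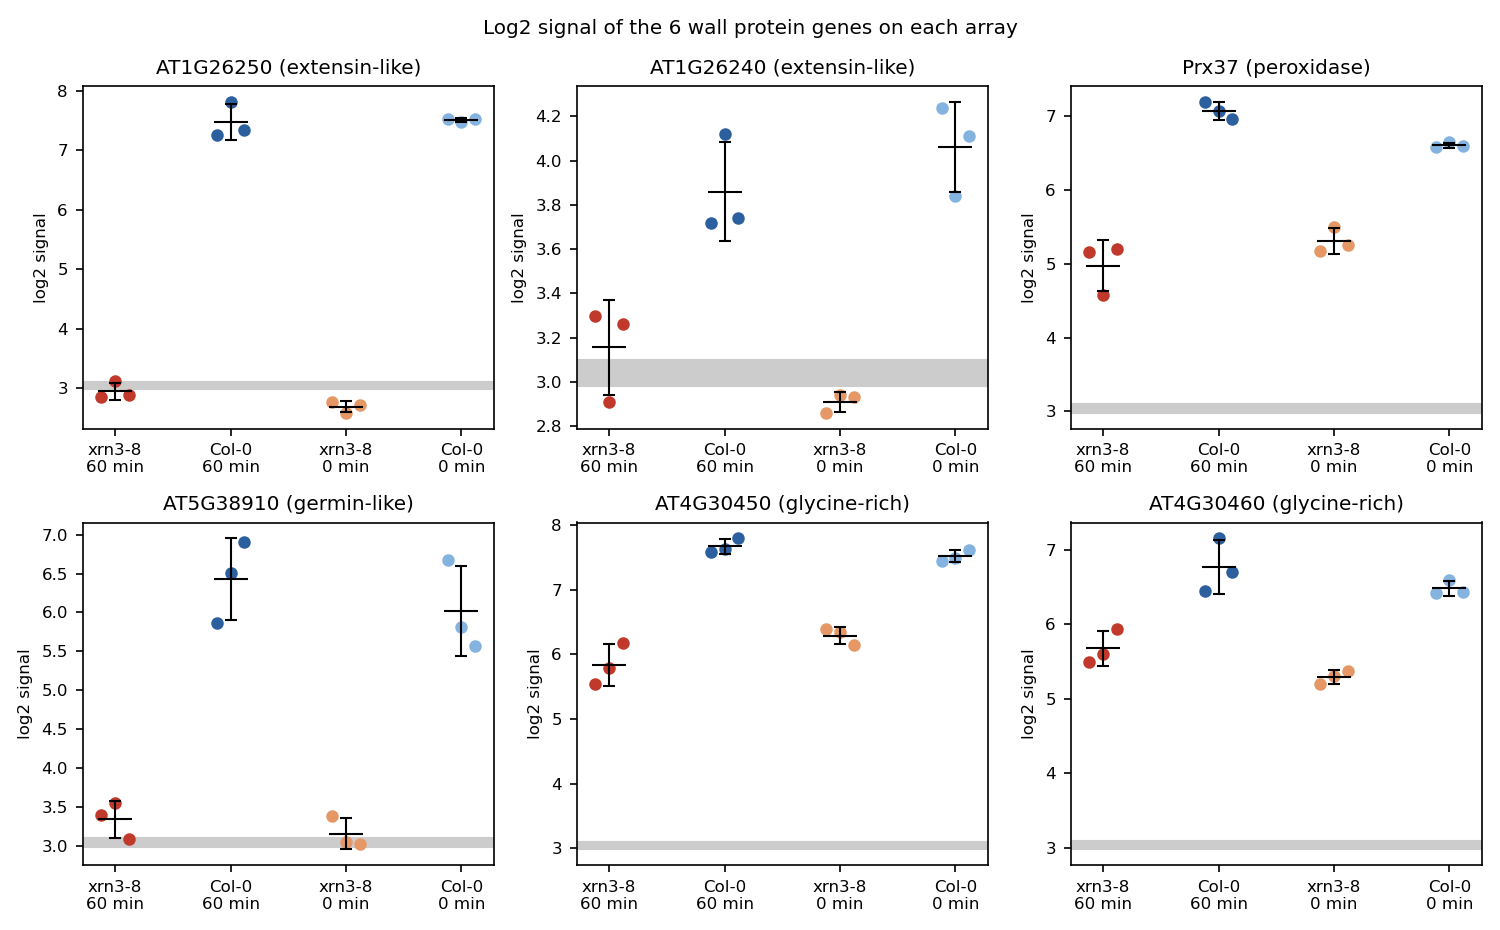
Log2 signal (vertical axis, a separate scale for each gene) of the 6 wall protein genes on each array, by group (horizontal axis: xrn3-8 and Col-0 at 60 min, then xrn3-8 and Col-0 at 0 min). Points are arrays, bars are the mean and SD of 3 arrays, and the grey band spans the lower quartiles of the 12 arrays (2.98 to 3.10); the xrn3-8 points lie below the Col-0 points for every gene, and those of AT1G26250 lie around or under the band.

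AT1G26250, the first of the extensin-like genes, had the largest genotype difference of the 6. It had log2 signals of 2.84, 3.11 and 2.88 in xrn3-8 after cordycepin, against 7.26, 7.82 and 7.34 in Col-0 after it. Before cordycepin it had 2.76, 2.58 and 2.71 in xrn3-8, against 7.53, 7.48 and 7.52 in Col-0. The Col-0 signals were far above every xrn3-8 signal, and the 3 Col-0 arrays before cordycepin agreed closely (SD 0.03). The difference was -4.53 ± 0.12 (SE) after cordycepin, or 23.1-fold lower in xrn3-8, and -4.83 ± 0.12 before it, or 28.4-fold lower. In both xrn3-8 groups its mean lay under the lower quartile of all probe sets, where the arrays' background limits what can be measured, so the true difference may be larger than these values.

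AT1G26240, the next gene along the chromosome to AT1G26250, showed a smaller difference. It had 3.30, 2.91 and 3.26 in xrn3-8 after cordycepin, against 3.72, 4.12 and 3.74 in Col-0. Before cordycepin it had 2.86, 2.94 and 2.93 in xrn3-8, against 4.24, 3.84 and 4.11 in Col-0. The groups did not overlap between genotypes, but the gap between the highest xrn3-8 and the lowest Col-0 array was narrow after cordycepin. The log2 difference was -0.70 ± 0.13 after cordycepin (1.63-fold lower in xrn3-8) and -1.15 ± 0.13 before it (2.22-fold lower). It is the gene whose difference after cordycepin was under 2-fold. All 3 xrn3-8 arrays before cordycepin lay under the lower quartile of their probe sets, so the difference at that time may also be larger than measured. Extensins share repeated motifs, and cross-hybridization between relatives was not checked here.

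Prx37 encodes a class III peroxidase. Its log2 signals were 5.16, 4.57 and 5.19 in xrn3-8 after cordycepin, against 7.19, 7.06 and 6.95 in Col-0. Before cordycepin they were 5.17, 5.50 and 5.25 in xrn3-8, against 6.57, 6.64 and 6.59 in Col-0. Col-0 stood higher at both times, and its arrays after cordycepin were all above those before it. The genotypes differed by -2.09 ± 0.14 after cordycepin (4.27-fold lower in xrn3-8) and by -1.29 ± 0.14 before it (2.45-fold lower).

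The germin-like gene AT5G38910 varied most between replicates of Col-0. It had 3.39, 3.55 and 3.08 in xrn3-8 after cordycepin, against 5.86, 6.51 and 6.91 in Col-0 (6.43 ± 0.53, SD, n = 3). Before cordycepin it had 3.38, 3.05 and 3.02 in xrn3-8, against 6.68, 5.81 and 5.57 in Col-0 (6.02 ± 0.58, SD, n = 3). The Col-0 arrays of both times overlapped, as did the xrn3-8 arrays, and the genotypes stayed apart. The xrn3-8 signals lay near the lower quartile of all probe sets (2.98 to 3.10 over the 12 arrays), so the true difference may be larger than measured. The difference was -3.09 ± 0.25 after cordycepin (8.50-fold lower in xrn3-8) and -2.87 ± 0.25 before it (7.31-fold lower).

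The glycine-rich protein genes AT4G30450 and AT4G30460 lie next to each other. AT4G30450 had 5.54, 5.79 and 6.18 in xrn3-8 after cordycepin, against 7.58, 7.63 and 7.80 in Col-0. Before cordycepin it had 6.39, 6.34 and 6.14 in xrn3-8, against 7.45, 7.49 and 7.62 in Col-0. Its Col-0 arrays lay within a narrow range at both times, while xrn3-8 after cordycepin was the most spread of the 4 groups. The difference was -1.83 ± 0.13 after cordycepin (3.56-fold lower in xrn3-8) and -1.23 ± 0.13 before it (2.35-fold lower).

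AT4G30460 had 5.50, 5.60 and 5.94 in xrn3-8 after cordycepin, against 6.45, 7.16 and 6.71 in Col-0. Before cordycepin it had 5.20, 5.31 and 5.38 in xrn3-8, against 6.42, 6.60 and 6.44 in Col-0. The xrn3-8 arrays after cordycepin all lay above those before it, and both lay under every Col-0 array. The genotypes differed by -1.09 ± 0.15 after cordycepin (2.13-fold lower in xrn3-8) and -1.19 ± 0.15 before it (2.28-fold lower).

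In the order of the 4 groups, both Col-0 groups stood above both xrn3-8 groups for every gene. Col-0 after cordycepin was the highest group for 4 genes, and Col-0 before cordycepin for the extensin-like genes. The Col-0 groups overlapped each other in 5 genes, and in Prx37 they did not. The xrn3-8 groups overlapped each other in AT1G26240, Prx37, AT5G38910 and AT4G30450, and did not in AT1G26250 and AT4G30460, where xrn3-8 after cordycepin was higher, as in 31.5% of all probe sets.

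In xrn3-8, 1 of the 6 genes fell and 1 rose over 60 min of cordycepin, against 15.9% of all probe sets called lower and 24.5% called higher (40.4% in all). Called means a Benjamini-Hochberg adjusted p under 0.05 over all 22746 probe sets. AT4G30450 averaged 5.84 ± 0.32 after cordycepin and 6.29 ± 0.13 before it (SD, n = 3 each), a difference of -0.45 ± 0.13 (SE, limma adjusted p = 0.00994). It was called lower under each of the other scalings (-0.96 to -0.40), but not without replicate 1 of xrn3-8 after cordycepin, the lowest array (-0.30, limma adjusted p = 0.0581). With 2 of those scalings most probe sets were called lower too: 16766 with centring on Bacillus subtilis controls and 14680 on housekeeping genes. AT4G30460 averaged 5.68 ± 0.23 after cordycepin and 5.30 ± 0.09 before it (SD, n = 3 each), a difference of 0.38 ± 0.15 (SE, limma adjusted p = 0.0461). That call was lost in 9 of 12 fits that each left out 1 array.

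The adjacent glycine-rich genes thus moved in opposite directions in xrn3-8 on the deposited scale, but AT4G30460 turned to -0.12 with centring on Bacillus subtilis spike controls and to -0.05 with centring on housekeeping genes. For the other 4 genes the limma adjusted p was 0.0998 for AT1G26250 (0.26), 0.136 for AT1G26240 (0.25), 0.0614 for Prx37 (-0.33) and 0.578 for AT5G38910 (0.19). In xrn3-8 the extensin-like genes and AT5G38910 lay near or under the lower quartile of all probe sets, where a fall could hardly be measured. Prx37 was called lower in 6 of the 8 alternative settings that kept all 12 arrays, by up to -0.84. These include the centrings on Bacillus subtilis controls and housekeeping genes, with which 16766 and 14680 of 22746 probe sets were called lower. The change of Prx37 was -0.84 and -0.77 with these 2 centrings. On the deposited scale, the change of Prx37 in xrn3-8 rested largely on replicate 2 after cordycepin, without which it was -0.13 (limma adjusted p = 0.356), and it ran to -0.44 when other single arrays were left out.

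In Col-0, 60 min of cordycepin was followed by a rise in 1 of the 6 genes, against 26.3% of all probe sets called higher and 20.1% called lower (46.3% in all). Prx37 averaged 7.07 ± 0.12 after cordycepin and 6.60 ± 0.04 before it (SD, n = 3 each), a rise of 0.47 ± 0.14 (SE, limma adjusted p = 0.00977). All 3 arrays after cordycepin were above all 3 before it, as they were for 31.9% of all probe sets. The root hair marker EXPA7 also rose in Col-0, by 0.47 (limma adjusted p = 0.00183), while EXPA18 differed by 0.07 (limma adjusted p = 0.593), and the part of EXPA7 in the rise of Prx37 was not tested. The rise lost its call when arrays were centred on Bacillus subtilis controls, hybridization controls or housekeeping genes (0.10, 0.16 and 0.06). The other 5 genes differed by -0.20 to 0.41, with limma adjusted p of 0.831 for AT1G26250, 0.211 for AT1G26240, 0.209 for AT5G38910, 0.365 for AT4G30450 and 0.122 for AT4G30460. The change of AT5G38910 ran from 0.17 to 0.74 when single arrays were left out. It was called without replicate 1 of Col-0 before cordycepin (0.74, limma adjusted p = 0.0157) and without replicate 1 of Col-0 after it (0.69, limma adjusted p = 0.0330). With centring on Bacillus subtilis controls both extensin-like genes were called lower in Col-0, AT1G26240 by -0.57 and AT1G26250 by -0.40. Both were also called lower with housekeeping genes (-0.615 and -0.45), and AT1G26240 with hybridization controls (-0.51, limma adjusted p = 0.0177). With these centrings 11485, 14106 and 5995 of 22746 probe sets were called lower in Col-0. On the deposited scale AT1G26240 was called lower without replicate 2 of Col-0 after cordycepin (-0.33, limma adjusted p = 0.0456).

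Those centrings moved the median of all probe sets, which was 0.09 in xrn3-8 and 0.07 in Col-0 on the deposited scale. With Bacillus subtilis controls, hybridization controls and housekeeping genes it was -0.41, -0.16 and -0.34 in xrn3-8, and -0.29, -0.23 and -0.34 in Col-0. Of the probe sets called over time in xrn3-8, 60.7% were higher on the deposited scale, against 0.986%, 5.57% and 1.77% with the 3 centrings in the same order. In Col-0, 56.7% were higher, against 6.59%, 7.38% and 4.81%.

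The change over 60 min differed between genotypes for Prx37. Its change in xrn3-8 minus that in Col-0 was -0.80 ± 0.19 (SE, limma adjusted p = 0.0167), which is the same as a wider gap between genotypes after cordycepin than before it. This value is made from the genotype differences by which the genes were chosen, so the choice may have biased its p-value. In this comparison 2.97% of all probe sets were called lower and 5.08% higher (8.05% in all), so that 63.1% of the calls were higher, against 26.4% with centring on Bacillus subtilis controls. The call was lost with centring on hybridization controls (-0.75, limma adjusted p = 0.123) and without replicate 2 of xrn3-8 before cordycepin (-0.70, limma adjusted p = 0.0528). The same difference was called for the root marker PYK10 (-0.51, limma adjusted p = 0.0204) and for the green shoot marker LHCB4.2 (0.59, limma adjusted p = 0.0118), and was -0.47 for EXPA7 (limma adjusted p = 0.0697). It was 0.03 for the other green shoot marker, RCA (limma adjusted p = 0.925). For the other root hair marker, EXPA18, it was -0.0033 (limma adjusted p = 0.993). The part of these markers in the value of Prx37 was not tested. AT4G30450 lay just outside the threshold, at -0.60 ± 0.18 (limma adjusted p = 0.0517), and was called in 5 of 7 alternative settings that kept all 12 arrays and used no replicate block. The value was 0.45 ± 0.18 for AT1G26240 (limma adjusted p = 0.150), 0.30 ± 0.17 for AT1G26250 (0.350), -0.22 for AT5G38910 (0.801) and 0.10 for AT4G30460 (0.853). For the extensin-like genes and AT5G38910 it is limited by xrn3-8 signals near or under the lower quartile of all probe sets.

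**Figure D2:**
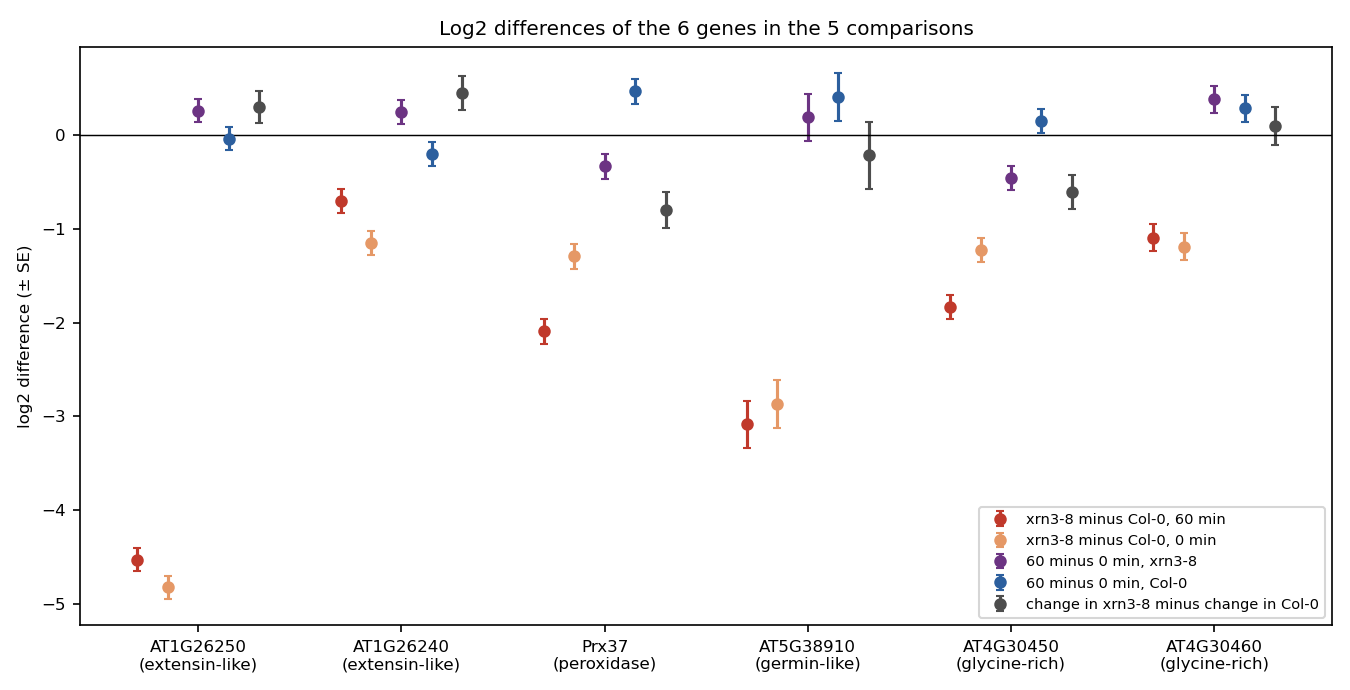
Log2 difference with its SE (vertical axis) of each of the 6 genes (horizontal axis) in 5 comparisons, given by colour: xrn3-8 minus Col-0 at 60 min and at 0 min, 60 min minus 0 min in xrn3-8 and in Col-0, and the first of these changes minus the second. The genotype differences lie between -4.83 and -0.70, while the changes over 60 min lie between -0.45 and 0.47.

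RNA quality and a control signal were read beside these values. The Affymetrix control probe set for 25S ribosomal RNA had log2 signals of 7.69, 8.77 and 9.16 in xrn3-8 after cordycepin, against 5.97, 6.17 and 6.29 in Col-0 after it. It had 5.74, 5.93 and 6.35 in xrn3-8 before cordycepin, against 5.74, 5.59 and 6.16 in Col-0 before it, so that xrn3-8 after cordycepin stood apart from the other 9 arrays. The actin signal at the RNA's end nearest the poly(A) tail exceeded that at the other end by 3.11 to 3.40 in xrn3-8 and 3.17 to 3.39 in Col-0 after cordycepin, and by 3.23 to 3.48 in xrn3-8 and 3.21 to 3.68 in Col-0 before it. For GAPDH the same measure was -0.05 to 0.29 in xrn3-8 and 0.01 to 0.08 in Col-0 after cordycepin. Before cordycepin it was 0.03 to 0.17 in xrn3-8 and 0.21 to 0.44 in Col-0, which do not overlap. The root marker PYK10 differed between genotypes by -0.44 after cordycepin (limma adjusted p = 0.00112) and by 0.07 before it (limma adjusted p = 0.628). LHCB4.2, a chlorophyll-binding antenna protein gene, differed by 0.76 after cordycepin (limma adjusted p = 1.10e-05) and by 0.17 before it (limma adjusted p = 0.212). RCA, the other green shoot marker, differed by 0.22 after cordycepin (limma adjusted p = 0.0320) and by 0.19 before it (limma adjusted p = 0.0590). The part of these signals in the differences of the 6 genes, after or before cordycepin, was not tested.

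Other genes of the same families were read from lists written by hand, with the 6 genes left out, since the files name most loci without a family. These lists were measured in part: 22 other extensin and proline-rich protein genes, 54 other class III peroxidase genes, 10 other germin-like genes and 6 other secreted glycine-rich protein genes. After cordycepin, 37 of these 92 genes were called lower in xrn3-8 and 9 higher, or 40.2% and 9.8%, against 15.6% and 16.6% of all probe sets. Before cordycepin 31 were called lower and 9 higher, or 33.7% and 9.8%, against 17.6% and 14.3%. At both times 28 were called lower and 6 higher, for which no share of all probe sets was counted. The peroxidase gene AT3G28200 was called in opposite directions, at 0.25 after cordycepin and -0.26 before it. Scaling moved the balance of all calls: 51.5% of them were higher in xrn3-8 after cordycepin and 44.8% before it, against 29.0% after it with centring on Bacillus subtilis controls, 41.1% after and 25.8% before it with hybridization controls, and 65.3% after and 63.6% before it with housekeeping genes.

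The peroxidase genes made up most of those that were lower. After cordycepin 31 of 54 were called lower in xrn3-8 and 4 higher, or 57.4% and 7.4%, against 15.6% and 16.6% of all probe sets. The median log2 difference was -0.48. Before it 24 were called lower and 4 higher, or 44.4% and 7.4%, against 17.6% and 14.3%, with a median of -0.25. Of the called genes, 14 were at least 2-fold lower after and 12 before cordycepin. Among all probe sets, 1.68% and 1.39% were that much lower without overlap between genotypes, which is not the same criterion. At both times 23 were called lower, and no share of all probe sets was counted for that. The count of lower calls was 23 to 32 after cordycepin and 21 to 26 before it over the alternative settings.

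Among these peroxidase genes, AT5G19890 differed most between genotypes before cordycepin. Its difference was -2.97 after cordycepin (SE 0.16, limma adjusted p = 1.01e-09) and -2.22 before it (limma adjusted p = 2.92e-08). AT2G41480 differed by -1.90 after and -2.17 before cordycepin, AT3G03670 by -3.12 and -1.98, and AT1G49570 by -2.25 and -1.72, and all 3 were called at both times. PRX52 differed by -1.19 after and -0.86 before cordycepin. PRXR1 differed by -0.48 after it (limma adjusted p = 0.00395) and by -0.31 before it (limma adjusted p = 0.0511).

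Of the 22 extensin and proline-rich protein genes, 4 were called lower in xrn3-8 and 3 higher after cordycepin, and 5 lower and 2 higher before it. These are 18.2% and 13.6% after cordycepin, against 15.6% and 16.6% of all probe sets, and 22.7% and 9.1% before it, against 17.6% and 14.3%. The shares are near those of all probe sets. AT3G22800 differed by -1.28 after and -1.49 before cordycepin. AT1G49490 was higher in xrn3-8, by 1.58 after and 1.48 before it, and AT2G15880 by 1.01 and 0.85. AT1G23040 differed by -0.38 after cordycepin and -0.83 before it.

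Of the 10 germin-like genes, 2 were called lower in xrn3-8 and 1 higher after cordycepin, and 2 lower and 2 higher before it. These are 20% and 10% after cordycepin, against 15.6% and 16.6% of all probe sets. Before it they are 20% and 20%, against 17.6% and 14.3%. For so few genes these shares are near those of all probe sets. AT1G18980 differed by -2.13 after and -1.54 before cordycepin and AT3G05950 by -1.18 and -0.90, while AT3G04200 differed by 0.65 and 1.14. AT3G10080 did not pass the test after cordycepin (0.35, limma adjusted p = 0.101) and was higher before it (0.70). Of the 6 glycine-rich protein genes, AT4G21620 was called higher after cordycepin (0.33) and AT1G04800 before it (0.47). That is 16.7% at each time, near the 16.6% and 14.3% of all probe sets. The call after cordycepin was lost in 3 alternative settings and in 3 of 12 fits that each left out 1 array. That of AT1G04800 was lost with hybridization controls (limma adjusted p = 0.171) and in 4 of 12 fits that each left out 1 array. The lowest differences among the 6 were -0.20 after and -0.22 before cordycepin, and neither was called.

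**Figure D3:**
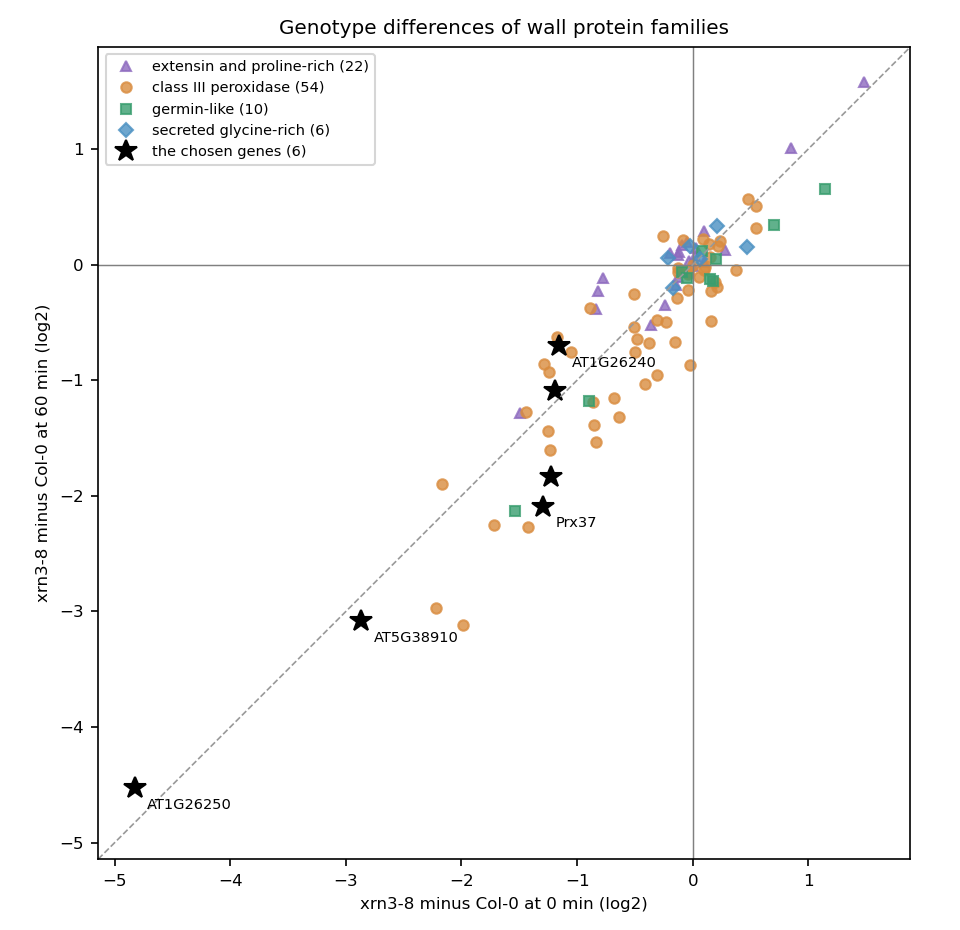
Log2 difference between xrn3-8 and Col-0 at 60 min (vertical axis) against that at 0 min (horizontal axis) for the 92 other measured genes of the 4 wall protein families, by symbol, and for the 6 genes described here (stars). The dashed line marks equal differences; many peroxidase genes lie at the lower left, reaching -3.12 for AT3G03670, and the stars reach -4.83 for AT1G26250.

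Enzymes that add hydroxyl groups or sugars to extensins or related proteins were measured in 4 of 12 listed cases. All 4 were called lower in xrn3-8 after cordycepin and 1 before it, against 15.6% and 17.6% of all probe sets. Over the alternative settings 2 to 4 were called lower after cordycepin. AT3G01720 differed by -0.59 after and -0.48 before cordycepin. The others differed after cordycepin by -0.32 (XEG113, an arabinosyltransferase of extensins), -0.84 (AT3G57630) and -0.31 (AT5G13500). For AT3G57630 the difference between the genotypes' changes was itself called (-0.64, limma adjusted p = 0.0116), and for the other 3 it was not.

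Over 60 min of cordycepin in xrn3-8, 8 of the 54 other peroxidase genes were called higher and 10 lower, and in Col-0, 18 were called higher and 9 lower. These are 14.8% and 18.5% in xrn3-8, against 24.5% and 15.9% of all probe sets, and 33.3% and 16.7% in Col-0, against 26.3% and 20.1%. The change in xrn3-8 minus that in Col-0 was called lower for 7 peroxidase genes and higher for 1, or 13.0% and 1.9%, against 2.97% and 5.08% of all probe sets. AT3G03670 was the furthest of these, at -1.13 (limma adjusted p = 0.00119), with a change of -0.12 in xrn3-8 and 1.01 in Col-0. Its xrn3-8 means, 2.94 after and 3.06 before cordycepin, lay about the lower quartile of all probe sets, where a further fall could not be measured. AT5G06730 followed at -0.85 (limma adjusted p = 0.00444), with 0.11 in xrn3-8 and 0.96 in Col-0. Prx37 lay in the same range. The counts of changes over time moved with the scaling: with centring on Bacillus subtilis controls, 43 peroxidase genes were called lower in xrn3-8 in place of 10. Among all 22746 probe sets, 16766 were called lower with that centring in place of 3613, so most probe sets moved in the same way. Over the alternative settings, the count called lower for the difference between the genotypes' changes ran from 1 to 11, and from 4 to 11 when single arrays were left out.

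**Figure D4:**
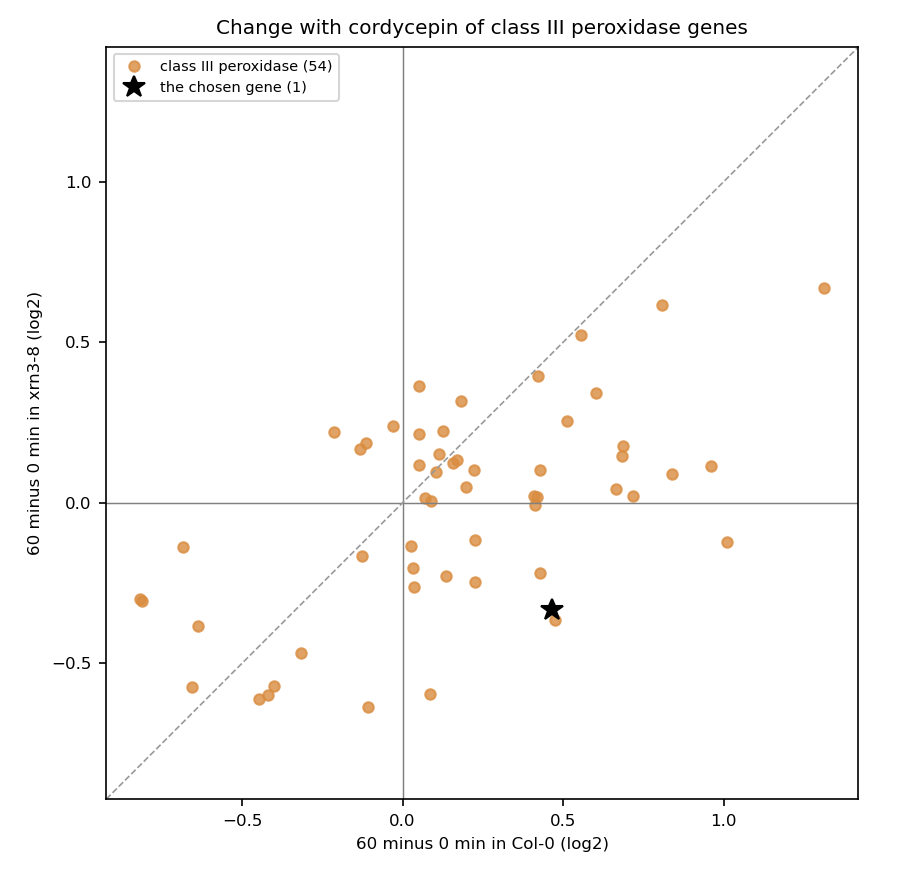
Log2 change from 0 to 60 min in xrn3-8 (vertical axis) against that in Col-0 (horizontal axis) for 54 class III peroxidase genes and Prx37 (star). Points under the dashed line had a lower change in xrn3-8 than in Col-0; Prx37 lies under it at -0.33 in xrn3-8 and 0.47 in Col-0, and AT3G03670 lies furthest under it.

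The genes beside the 6 were read in the order of the TAIR10.1 gene table, which gives no strand. AT5G38900 is the nearest measured protein-coding neighbour of AT5G38910, with a tRNA gene between them. It had log2 signals of 3.47, 3.01 and 3.37 in xrn3-8 after cordycepin, against 5.49, 5.72 and 5.88 in Col-0. Before cordycepin it had 3.18, 3.13 and 2.86 in xrn3-8, against 5.43, 5.01 and 5.27 in Col-0. The genotypes stood well apart at both times, as in AT5G38910, and the xrn3-8 signals lay about the lower quartile of all probe sets. The differences were -2.41 ± 0.14 after cordycepin (SE, limma adjusted p = 1.81e-09) and -2.18 ± 0.14 before it (limma adjusted p = 5.85e-09).

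AT4G08780, the peroxidase gene next to Prx37, was also lower in xrn3-8, with a difference of -1.15 ± 0.13 after cordycepin (SE, limma adjusted p = 3.16e-06) and -0.68 ± 0.13 before it (limma adjusted p = 0.00061). AT4G08780 is also among the 54 other peroxidase genes counted above, and cross-hybridization between it and Prx37 was not checked. On the other side of Prx37, beyond a pseudogene, AT4G08760 had signals of 2.29 to 2.60 on all arrays, under their lower quartiles. It differed between genotypes by 0.18 after cordycepin (limma adjusted p = 0.0799) and -0.01 before it (limma adjusted p = 0.927). AT4G30470, beside AT4G30460, was higher in xrn3-8 after cordycepin by 0.34 ± 0.08 (limma adjusted p = 0.00387) and differed by -0.16 before it (limma adjusted p = 0.157). Apart from the adjacent pairs among the 6 genes themselves, a measured neighbour was thus lower in xrn3-8 at both times for AT5G38910 and for Prx37, while AT4G30470 was not. AT1G26240 and AT1G26250 are neighbours of each other, and their outer neighbours were not measured by a named probe set.

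**Figure D5:**
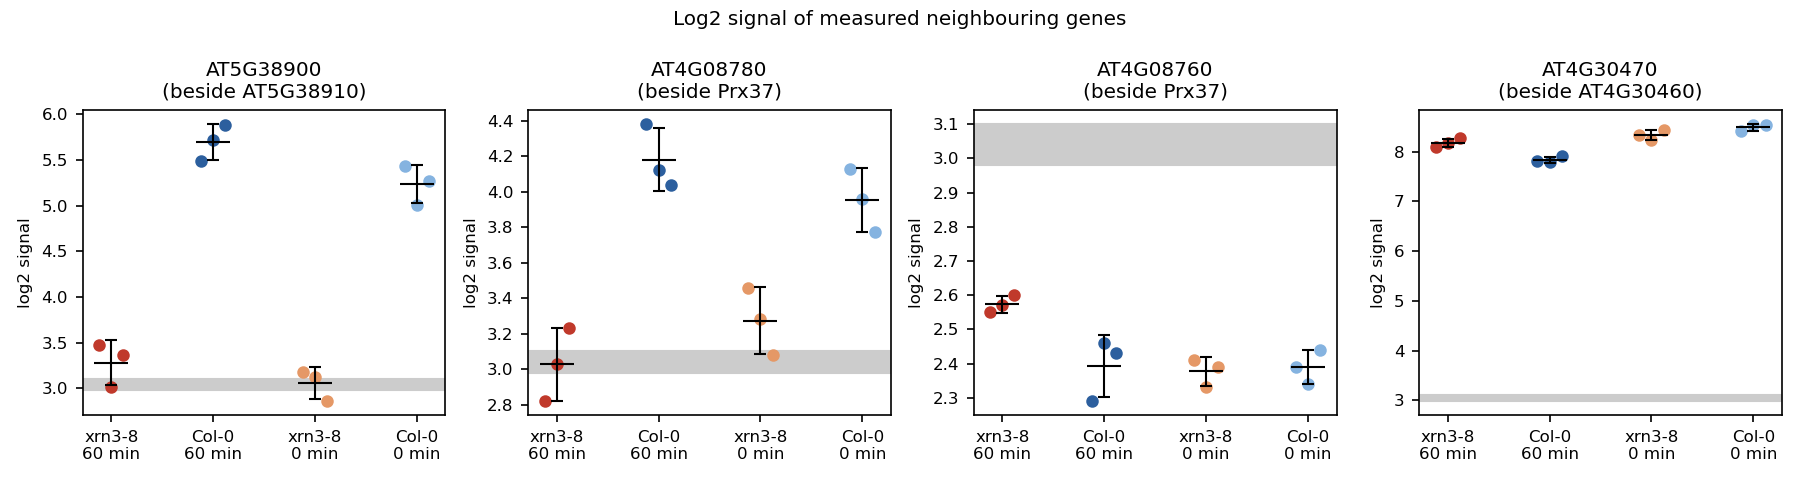
Log2 signal (vertical axis, a separate scale for each gene) of 4 measured neighbouring genes on each array, by group (horizontal axis, xrn3-8 and Col-0 at 60 min and then at 0 min). Points are arrays, bars are the mean and SD of 3 arrays, and the grey band spans the lower quartiles of the arrays; AT5G38900 and AT4G08780 are lower in xrn3-8 at both times, and AT4G08760 lies under the band in all groups.

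The profiles of the 6 genes over the 12 arrays resembled each other, as their choice would make them. Pearson's r between pairs of them ran from 0.839 to 0.971 over the 12 arrays (15 pairs, median 0.917). The arrays of a group share their genotype and time, and once each group's mean was taken away the r ran from -0.514 to 0.602, with a median of 0.104 and 10 of 15 pairs above 0.

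Among 1100 single-gene probe sets with an SD of at least 0.5 over the 12 arrays, those nearest to the mean profile of the 6 genes were AT1G26390 (r = 0.993), AT1G17860 (r = 0.991), AT3G13610 (r = 0.991), OSM34 (r = 0.990) and the peroxidase gene AT2G41480 (r = 0.990). AT2G15220, AT4G01700 and AT5G38900 followed, each at r = 0.989. OSM34 encodes osmotin-like protein and was also nearest to AT4G30450 (r = 0.980). The nearest profile was AT4G01700 for AT1G26250 (r = 0.994), AT2G23540 for AT1G26240 (r = 0.966) and AT4G29690 for Prx37 (r = 0.987). It was GSTU22, a glutathione transferase gene, for AT5G38910 (r = 0.989), and AT3G16270 for AT4G30460 (r = 0.962). AT5G12340 was among the nearest 3 of both Prx37 (r = 0.982) and AT4G30450 (r = 0.976). These values describe likeness over 12 arrays that fall into 4 groups, and carry no test.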

How the data were processed

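Total RNA of seedlings was labelled with biotin and hybridised to Affymetrix arrays, per the labels' protocols. The authors deposited log2 signals per probe set, with affy 1.48.0 and limma 3.26.9 named in the submitters' processing notes. The background correction, normalization and summary are not given in the sources used here. The 12 columns have similar but not equal distributions. Their medians were 4.63 to 4.69 in xrn3-8 and 4.68 to 4.69 in Col-0 after cordycepin. Before it they were 4.80 to 4.81 in xrn3-8 and 4.86 to 4.87 in Col-0. Detection calls were not used.

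Of 22810 probe sets, 64 controls were left out and 22746 tested. The probe table gives 1 gene for 13513 of them, several for 503, and does not list 8730. Through Entrez identifiers, 13436 were matched to the TAIR10.1 gene table. No genome build is named for the arrays, so no coordinates are given.

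Group means were estimated from the 12 arrays together in limma 3.58.1 (R 4.3.3; lmFit and eBayes, two-sided, Benjamini-Hochberg over 22746 probe sets, called at an adjusted p under 0.05). The fit was tested on simulated data. The median SE was 0.0960, and 0.136 for the difference between changes. The number of arrays limits the precision, as do the background of the arrays for dim probe sets and the choice of scale for changes over time. The labels call the replicates biological and say no more, so p-values measure the spread between these samples.

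The genes and lists were chosen with earlier results of these data known. Named besides the 6 genes are measured neighbours, up to 4 called genes of each family with the largest genotype difference before cordycepin, and the 3 (for the mean profile, 8) most alike profiles. Further genes are named where a count is small, where a gene has a symbol, or as examples of a tested difference between changes, and were chosen after their values were seen. Alternatives were a replicate block, a prior variance that depends on the signal, array weights, leaving out the lowest 40% of probe sets, 3 centrings on control or housekeeping probe sets, quantile normalization and leaving out each array. Fits on only the 6 arrays of 1 time were added after seeing the data. Cellulose synthase and secondary wall genes were listed, and 0 of 13 were measured by a named probe set.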

Additional observations from a re-analysis of the deposited data

Results flagged for a closer look

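The change of Prx37 over 60 min of cordycepin differed between the genotypes. The change in xrn3-8 minus that in Col-0 was -0.80 on the log2 scale (limma adjusted p = 0.0167), from -0.33 in xrn3-8 and 0.47 in Col-0. Without replicate 2 of xrn3-8 after cordycepin the change in xrn3-8 was -0.13 (limma adjusted p = 0.356). The call of the difference was lost with centring on hybridization controls (-0.75, limma adjusted p = 0.123). It was also lost without replicate 2 of xrn3-8 before cordycepin (-0.70, limma adjusted p = 0.0528). The choice of the gene by its genotype differences may have biased these p-values.

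The control probe set for 25S ribosomal RNA, which stands outside the tests, had a mean log2 signal of 8.54 in xrn3-8 after cordycepin, against 6.14 in Col-0 after it. The means before cordycepin were 6.01 in xrn3-8 and 5.83 in Col-0. All 3 arrays of xrn3-8 after cordycepin were above the other 9, and the 3 differed among themselves by more than the arrays of any other group.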

How the results depend on the processing

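The genotype differences of all 6 genes kept their direction under every alternative run. Their median stayed within -2.09 to -1.89 after cordycepin and -1.37 to -1.17 before it, and within -2.10 to -1.85 and -1.32 to -1.25 when single arrays were left out. AT1G26240 is not among the probe sets kept when the lowest 40% were left out. Changes over time depended on the scale. With centring on Bacillus subtilis controls, hybridization controls and housekeeping genes, the probe sets called were 16933, 4539 and 14944 over time in xrn3-8 (9183 as deposited) and 1093, 341 and 1189 for the difference between the genotypes' changes (1830). Hybridization controls gave 3466 for the genotypes after cordycepin (7322), 3749 before it (7264) and 6473 over time in Col-0 (10534). Of the 6 genes, 2 were called over time in Col-0 with Bacillus subtilis controls and with housekeeping genes (1 as deposited). These 2 were the extensin-like genes, called lower, while Prx37 was called higher as deposited and was not called there. With those centrings 11485 and 14106 of 22746 probe sets were called lower in Col-0, and 810 and 713 higher. For the difference between changes, 2 were called with those centrings, with the signal-dependent prior, with array weights and without the lowest 40%, and 0 with hybridization controls, by limma (1 as deposited).

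Signs turned in these changes over time, for which the cause, beyond the shift of all probe sets, was not tested. In xrn3-8 with Bacillus subtilis controls the change was -0.25 for AT1G26250, -0.26 for AT1G26240, -0.32 for AT5G38910 and -0.12 for AT4G30460. With hybridization controls it was -0.0067 for AT1G26240 and -0.063 for AT5G38910. With housekeeping genes it was -0.18 (AT1G26250), -0.19 (AT1G26240), -0.24 (AT5G38910) and -0.052 (AT4G30460). In Col-0 AT4G30450 turned to -0.21, -0.15 and -0.26 with the 3 centrings and AT4G30460 to -0.077, -0.018 and -0.125. AT5G38910 turned to -0.005 with housekeeping genes, and AT1G26250 to 0.0030 with array weights. The difference between changes of AT4G30460 turned to -0.047 with Bacillus subtilis controls.

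Leaving out single arrays gave 1 to 3 of the 6 genes called over time in xrn3-8, 1 to 3 in Col-0 and 0 to 2 for the difference between changes. The change of AT1G26250 in Col-0 then ran from -0.21 to 0.07. The difference between changes ran from -0.55 to 0.025 for AT5G38910 and from -0.065 to 0.29 for AT4G30460.

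Samples of the same replicate number were at most slightly more alike than samples of different numbers. Deviations of same-numbered samples correlated at -0.0856 to 0.176 (median 0.0365, 18 pairs), and those of different numbers at -0.158 to 0.142 (median -0.0241, 36 pairs). With the replicate number as a block, 7488 probe sets were called between genotypes after cordycepin and 7426 before it. Over time 9328 were called in xrn3-8 and 10661 in Col-0, and 1940 for the difference between changes. Each count was above that without the block (7322, 7264, 9183, 10534 and 1830 in this order). For the difference between changes 2 of the 6 genes were called, AT4G30450 at a limma adjusted p of 0.0448.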
